A study of Mus musculus with 4 samples.

Results

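The genes described here encode the proteasome, its activators, its inhibitor and the chaperones that assemble it. Members were found by symbol, as protein-coding genes of the RefSeq table for mm10 whose name starts with Psma, Psmb, Psmc, Psmd, Psme, Psmf or Psmg and a digit. The rule found 51 of 21887 protein-coding genes on chromosomes 1 to 19, X and Y. Of these 49 encode subunits, activators, the inhibitor or assembly chaperones. The other two, Psmc3ip (a recombination factor) and Psme3ip1 (a protein that binds an activator), match the letters without being subunits.

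The 26S proteasome degrades proteins that carry ubiquitin chains. Its barrel-shaped core is built from rings of alpha and beta subunits, and the beta subunits hold the proteolytic sites. A regulatory particle of ATPases and other subunits binds the ubiquitinated substrate, unfolds it and threads it into the core. Alternative activators of the Psme family open the core without ubiquitin recognition, and interferon induces replacement beta subunits for antigen processing. The transcription factor NRF1, encoded by Nfe2l1, is known to raise proteasome gene expression through antioxidant response elements when the proteasome is inhibited. NR1D1 (REV-ERB alpha) is a heme-binding nuclear receptor and clock repressor that recognises the ROR response element.

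Chromatin carrying NR1D1 was profiled by CUT&Tag, a method in which an antibody directs a transposase to the DNA around its target. The cells were wild-type primary vascular smooth muscle cells grown out of mouse aortas, kept for 24 h either with phosphate-buffered saline (PBS) or with vasostatin-2, a fragment of chromogranin A. Each treatment has 1 NR1D1 library and 1 IgG library, all with the same batch label. The 2 NR1D1 peak lists were used; the IgG libraries are not used here. The sources used here give neither the age nor sex of the mice, nor the number of animals pooled. Without replicates no treatment effect was tested, and differences between the lists are differences between 2 libraries. Peak lists hold no RNA levels, so the cell type could not be checked by expression; of 5 smooth muscle genes (Acta2, Myh11, Tagln, Cnn1 and Smtn) 1, Smtn, had a peak at an end, in the PBS list.

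The promoters of the members found in both lists are shown first, since these peaks were called in both libraries. RefSeq promoter windows (GRCm38.p6, the assembly of mm10) were found for 43 of the 51 genes, with 47 windows in all. Of the 4 genes with a peak in both lists Psme2, Psma4 and Psmc5 had a window. Bases before the annotated start are printed 5′ to 3′ on the coding strand, and stretches inside the gene itself or partly covered by a neighbouring gene were left out. The windows are chr14:55591102-55591351 on the minus strand for Psme2, chr9:54950609-54950780 on the plus strand for Psma4 and chr11:106256085-106256184 on the plus strand for Psmc5. The Psma4 window lies within the span of another gene, AY074887. Capitals mark matches to the motifs described below.
Psme2: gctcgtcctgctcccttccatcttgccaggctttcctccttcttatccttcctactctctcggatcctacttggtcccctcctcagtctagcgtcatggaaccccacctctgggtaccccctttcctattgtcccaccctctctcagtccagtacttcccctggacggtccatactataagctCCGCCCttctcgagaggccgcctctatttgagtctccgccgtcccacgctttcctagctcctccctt
Psma4: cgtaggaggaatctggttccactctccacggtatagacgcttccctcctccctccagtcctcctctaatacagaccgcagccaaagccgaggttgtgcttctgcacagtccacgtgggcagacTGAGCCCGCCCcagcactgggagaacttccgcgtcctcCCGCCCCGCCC
Psmc5: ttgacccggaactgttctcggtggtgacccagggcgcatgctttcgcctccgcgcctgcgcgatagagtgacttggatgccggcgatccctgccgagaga

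All 250 bases shown for Psme2, all 172 for Psma4 and all 100 for Psmc5 lay within the PBS peak. The PBS summit lay among the bases shown for Psme2 and Psma4 but not for Psmc5, where it was 181 bases before the start. GC content was 57.2% for Psme2, 62.8% for Psma4 and 64.0% for Psmc5. The capitals of Psme2 are a GC box (GGGCGG or its complement on the other strand), 67 bases before the start. In Psma4 3 GC boxes were found, and the first overlaps a match to the antioxidant response element core. No match to the ROR element core TAGGTCA was found in these letters, which says nothing of binding by the factor.

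Proteasome genes carried NR1D1 peaks mainly in the PBS list. A gene was counted when any part of a peak lay within 1 kb of either end of its annotated span. In the PBS list 14 of 51 members had such a peak (27.5%, 95% Wilson interval 17.1 to 40.9), against 14.8% of all protein-coding genes, which lies below the interval. In the vasostatin-2 list 4 of 51 did (7.84%, 3.09 to 18.5), against 10.4%, which lies inside it. The 4 genes of the vasostatin-2 list, Psma4, Psmc5, Psmd3 and Psme2, were all in the PBS list too, so 7.84% had a peak in both lists, near the 7.19% of all genes. A PBS peak without a vasostatin-2 peak was found for 10 members (19.6%, 11.02 to 32.5), against 7.58%, and for vasostatin-2 alone the count was 0 (Wilson upper bound 7.005%), against 3.20%. Intervals cover counting error over genes only. The higher share with PBS depended on the rule for strong peaks. Among peaks at or above their list's median fold the share with PBS was 9 of 51 (17.6%, 9.57 to 30.3), against 9.46%, which lies just below the interval. For PBS alone it was 5 of 51 (9.80%, 4.26 to 21.0), against 5.03%. With -log10 q of at least 5 the share with PBS was 4 of 51 (7.84%, 3.09 to 18.5), against 7.35% of all genes. For PBS alone it was then 2 of 51 (3.92%, 1.08 to 13.2), against 4.55%. With at least 8 fragments at the summit the share with PBS was 8 of 51 (15.7%, 8.17 to 28.0), against 10.6%, which lies inside the interval.

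Members with a CpG-rich promoter had PBS peaks about as often as other genes with such a promoter. A promoter was called CpG-rich when GC content exceeded 50% and the observed over expected CpG ratio exceeded 0.6 in the window of 300 bases. Of the 43 members with a window 29 met this. Of all 8411 protein-coding genes of this kind 26.3% had a PBS peak, 18.0% a vasostatin-2 peak, 13.0% both, 13.3% a PBS peak alone and 4.97% a vasostatin-2 peak alone. Among the 29 members 9 (31.03%, 17.3 to 49.2) had a PBS peak, which is near that background. Of the 29, 2 (6.90%, 1.91 to 22.0), Psma4 and Psmc5, had a vasostatin-2 peak, a lower share whose interval includes the background, and 7 (24.1%, 12.2 to 42.1) a PBS peak alone. The 14 members whose windows were not CpG-rich included Psme2, Psmd10 and Psmb8, each with a PBS peak.

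**Figure D1:**
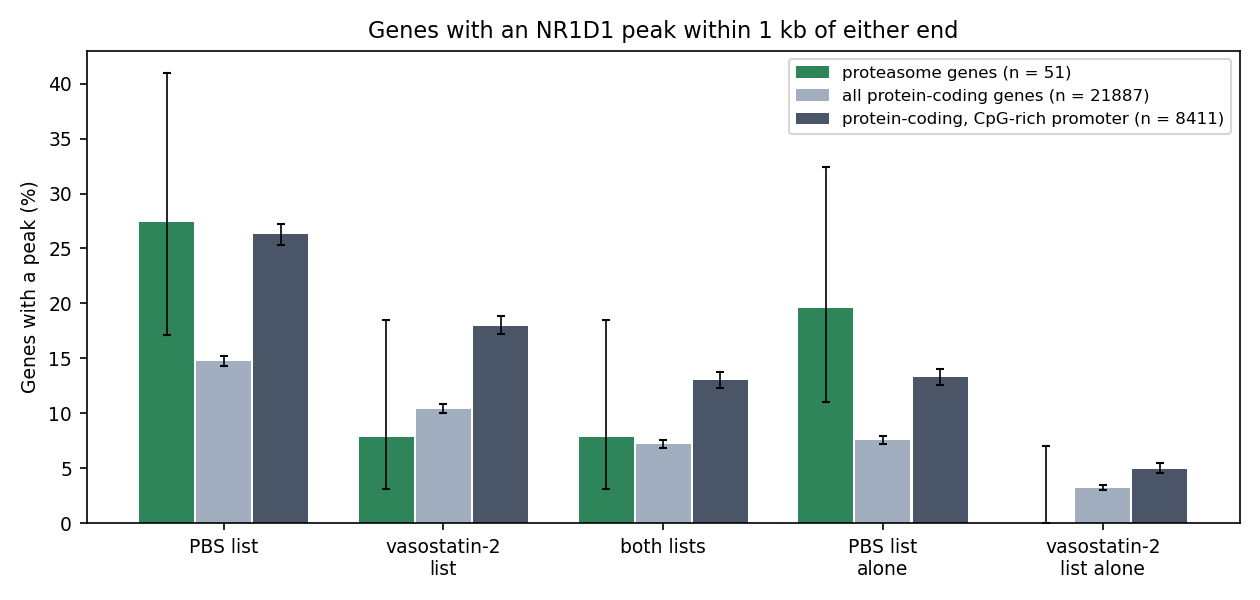
Share of genes (%) with an NR1D1 peak within 1 kb of either end, for the 51 proteasome genes, all 21887 protein-coding genes and the 8411 with a CpG-rich promoter. Bars are shares and whiskers 95% Wilson intervals; proteasome genes stand at 27.5% for PBS and 7.84% for vasostatin-2.

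The core particle was marked at 6 of 19 genes with PBS and at 1 of 19 with vasostatin-2. Each peak has the authors' fold enrichment over local background, their -log10 q-value and a whole number of fragments at its summit, recovered from the deposited fold and p-value. Among the alpha ring genes, whose products form the gate of the core, 3 of 8 had a peak. Psma4 had 11 fragments and 7.38-fold enrichment with PBS (-log10 q 7.26), and 7 fragments and 5.71-fold with vasostatin-2 (-log10 q 4.14). The PBS peak spans chr9:54950576-54950989, and the summits lay 86 and 105 bp outside the gene. The PBS summit of Psma1 held 7 fragments at 5.75-fold (-log10 q 4.31), and that of Psma2 5 fragments at 4.50-fold (-log10 q 2.56), and neither gene had a vasostatin-2 peak. Psma5, Psma6, Psma7 and the testis form Psma8 had none in either list.

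Psma3, another alpha subunit, had peaks that the gene-end rule does not count. Its annotated span starts 5340 bp before the RefSeq promoter start, and both lists had a peak within 1 kb of that promoter start. The PBS peak at chr12:70974737-70975163 had 9 fragments at 6.04-fold, and the overlapping vasostatin-2 peak 8 fragments at 5.46-fold, with summits 299 and 304 bp into the gene from this start. Counted by promoter starts, 12 of 43 members had a PBS peak and 4 of 43 a vasostatin-2 peak, against 15.8% and 10.6% of genes with a window.

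The constitutive beta ring had a peak at 2 of 7 genes, both in the PBS list alone. Psmb2, which encodes a beta subunit without a proteolytic site, had 8 fragments at 6.12-fold (-log10 q 4.90). Psmb5, which encodes the chymotrypsin-like site that bortezomib inhibits, had 5 fragments at 4.31-fold (-log10 q 2.24). The genes Psmb1, Psmb3, Psmb4, Psmb6 and Psmb7 had no peak at an end; a vasostatin-2 peak of 9 fragments and 6.87-fold lay inside Psmb1, 10611 bp from its nearer end.

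Of the inducible or tissue-restricted beta subunits, Psmb8 (the immunoproteasome counterpart of Psmb5) had a peak, and Psmb9, Psmb10 and the thymus form Psmb11 had none. The Psmb8 peak differed from the rest in position, since it lay past the end of the gene, with its summit 640 bp beyond it. At chr17:34201959-34202229, it held 12 fragments at 4.69-fold (-log10 q 3.71) in the PBS list, on the second-highest local background of the member peaks, 1.77 fragments. The vasostatin-2 list had a peak of 13 fragments at 6.35-fold farther out, 1571 bp beyond the same end, which the 1 kb rule does not count. That farther peak overlapped a peak of the PBS list, so both lists had signal there. With a window of 3 kb Psmb8 counted in both lists, which then held 5 members, with 9 in PBS alone.

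The regulatory particle was marked at 4 of 17 genes with PBS and 2 of 17 with vasostatin-2. Its ATPases unfold the substrate, and 2 of their 6 genes had a peak. Psmc5 held 9 fragments at 6.11-fold (-log10 q 4.97) with PBS and 7 at 5.36-fold (-log10 q 3.58) with vasostatin-2, and the PBS peak spans chr11:106255775-106256401. Psmc6 had 8 fragments at 5.43-fold (-log10 q 3.84) in the PBS list alone. Psmc1, Psmc2, Psmc3 and Psmc4 had no peak.

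Of 11 genes for the other subunits of this particle, Psmd3 and Psmd1 had a peak. Psmd3, a subunit of the lid, had the highest fold of all members in both lists, with 29 fragments at 10.9-fold (-log10 q 20.99) with PBS and 17 at 8.74-fold (-log10 q 11.1) with vasostatin-2. They lie at chr11:98682001-98682474 and chr11:98682001-98682481. By fold these peaks ranked 192 of 7377 and 423 of 8816. Psmd1, the large scaffold of the base, had a peak at chr1:86064350-86064818 with 13 fragments at 7.11-fold (-log10 q 7.40) in the PBS list, and the nearest vasostatin-2 peak was 219767 bp from its ends. No peak at an end was listed for Psmd2, the other large scaffold, the ubiquitin receptor gene Psmd4, Psmd14 (the deubiquitinase of the lid), or Psmd6, Psmd7, Psmd8, Psmd11, Psmd12 and Psmd13. Psmd8 came nearest, with peaks 3256 bp (PBS) and 3579 bp (vasostatin-2) from an end.

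Among 5 activator genes Psme2 alone had a peak, in both lists. Psme2 encodes the beta subunit of the interferon-inducible PA28 activator. It held 29 fragments at 10.3-fold (-log10 q 19.9) with PBS and 17 at 7.87-fold (-log10 q 9.77) with vasostatin-2, the same fragment numbers as Psmd3. The PBS peak spans chr14:55590878-55591684. Psme1, which encodes the partner subunit and lies next to it on chromosome 14, had no peak within 9351 bp (PBS) or 9561 bp (vasostatin-2) of an end. Psme3, Psme4 and Psme2b, a second gene related to Psme2, had none. The inhibitor gene Psmf1 had none at an end, and a PBS peak of 5 fragments at 4.58-fold inside the gene, 9064 bp from its nearer end.

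Assembly chaperones had a peak at 2 of 7 genes, in the PBS list alone. Psmd10, which encodes gankyrin, a chaperone of the base, had 6 fragments at 5.33-fold (-log10 q 3.76), and Psmg4, a chaperone of the core, 6 fragments at 4.30-fold (-log10 q 2.17). Psmg1, Psmg2, Psmg3, Psmd5 and Psmd9 had no peak at an end; Psmd5 had a vasostatin-2 peak of 7 fragments and 4.91-fold inside the gene. Of the 2 genes that are not subunits Psme3ip1 had a PBS peak of 6 fragments at 4.64-fold (-log10 q 2.64), and Psmc3ip none.

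**Figure D2:**
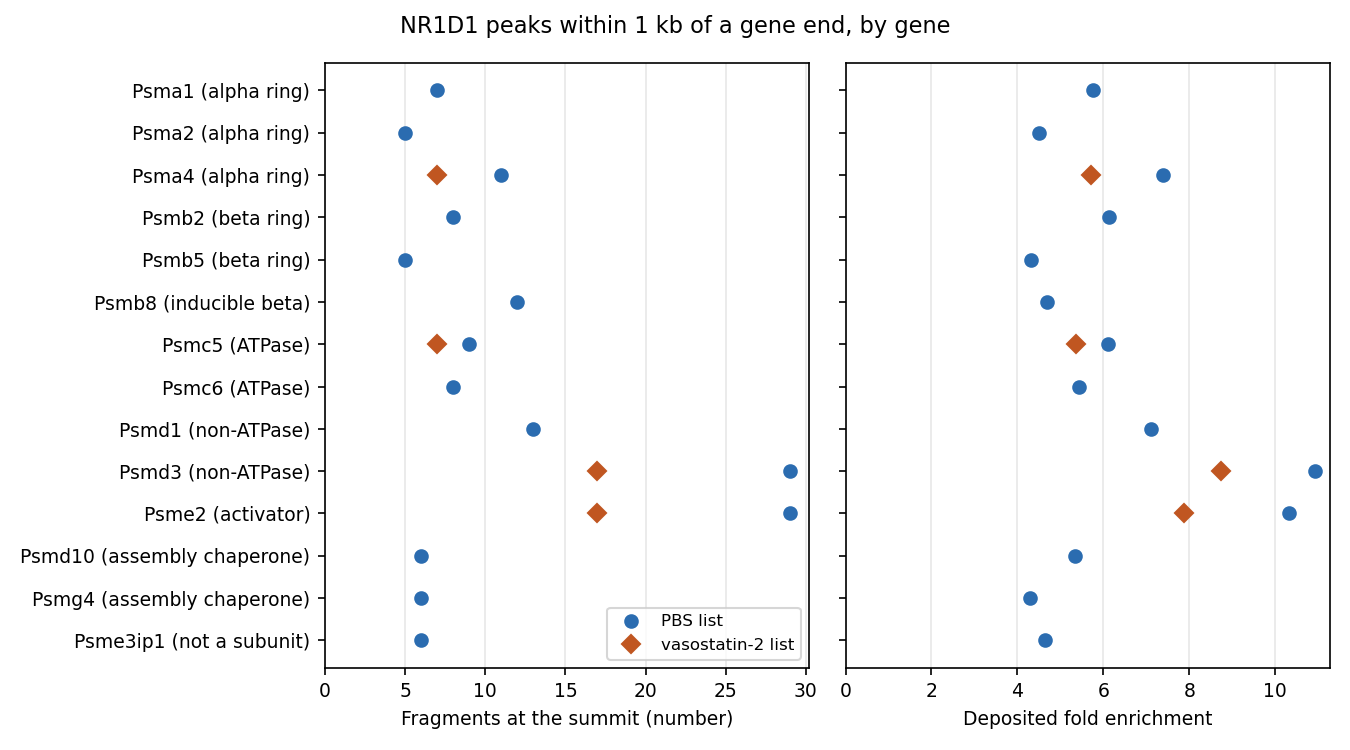
Fragments at the summit (left) and deposited fold enrichment (right) for each of the 14 genes with a peak, by role; circles are PBS peaks and diamonds vasostatin-2 peaks. Psmd3 and Psme2 stand apart at 29 and 17 fragments, and 10 genes have a PBS peak alone.

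The PBS member peaks ranged from among the highest folds of the list (Psmd3 and Psme2) to the low percentiles 17.8 (Psmb5) and 17.1 (Psmg4). Psma4 and Psmd1 stood at percentiles 83.5 and 81.1 by fold. Psmb2 (67.6), Psmc5 (67.4), Psma1 (60.1) and Psmc6 (53.8) were also above the list's median, and the remaining PBS member peaks were at or below it. The 14 PBS peaks had a median fold of 5.59 (4.30 to 10.9), against 5.80 for the 2723 PBS peaks at ends of protein-coding genes. Their median -log10 p was 7.74 against 8.59, their median -log10 q 4.07 against 4.81, and their median summit 8 fragments against 10. The 4 vasostatin-2 peaks had a median fold of 6.79 (5.36 to 8.74), -log10 p of 11.1, -log10 q of 6.96 and 12 fragments, against 5.26, 7.36, 3.67 and 8 for the 1922 vasostatin-2 peaks at such ends. All of these but the fragments are the authors' numbers and describe peaks within 1 list.

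Nearly all member peaks sat at the start of the gene. Of the 14 PBS peaks 11 were nearest to the start, 1 (Psmb8) to the end, and 2 (Psmb2 and Psmd3) belonged to genes whose strand was not in the table used. Over all protein-coding genes with a known strand 92.2% of PBS gene-end peaks were nearest to the start. Summits of the 11 peaks lay from 263 bp before to 239 bp after the RefSeq promoter start, with a median of -103 bp, and 8 lay before it. The median over 2582 such peaks of all genes was -104 bp, and 66.9% lay before the start. The 3 vasostatin-2 peaks with a known strand lay 276, 183 and 79 bp before the start.

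Several of these peaks also lie beside another gene, where the signal cannot be assigned to the proteasome gene alone. Of the 14 PBS peaks 5 also lay within 1 kb of an end of another protein-coding gene, against 22.0% of PBS peaks at protein-coding gene ends that lay near more than one gene. Those were Psma2 with Mrpl32 (a mitochondrial ribosomal protein), Psma4 with Hykk and AY074887, Psmc5 with Ftsj3 (an rRNA methyltransferase), Psme2 with Rnf31 (the ubiquitin ligase HOIP), and Psme3ip1 with Rspry1 and LOC115486880. Of the 4 genes in both lists only Psmd3 had a peak with no such neighbour.

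**Figure D3:**
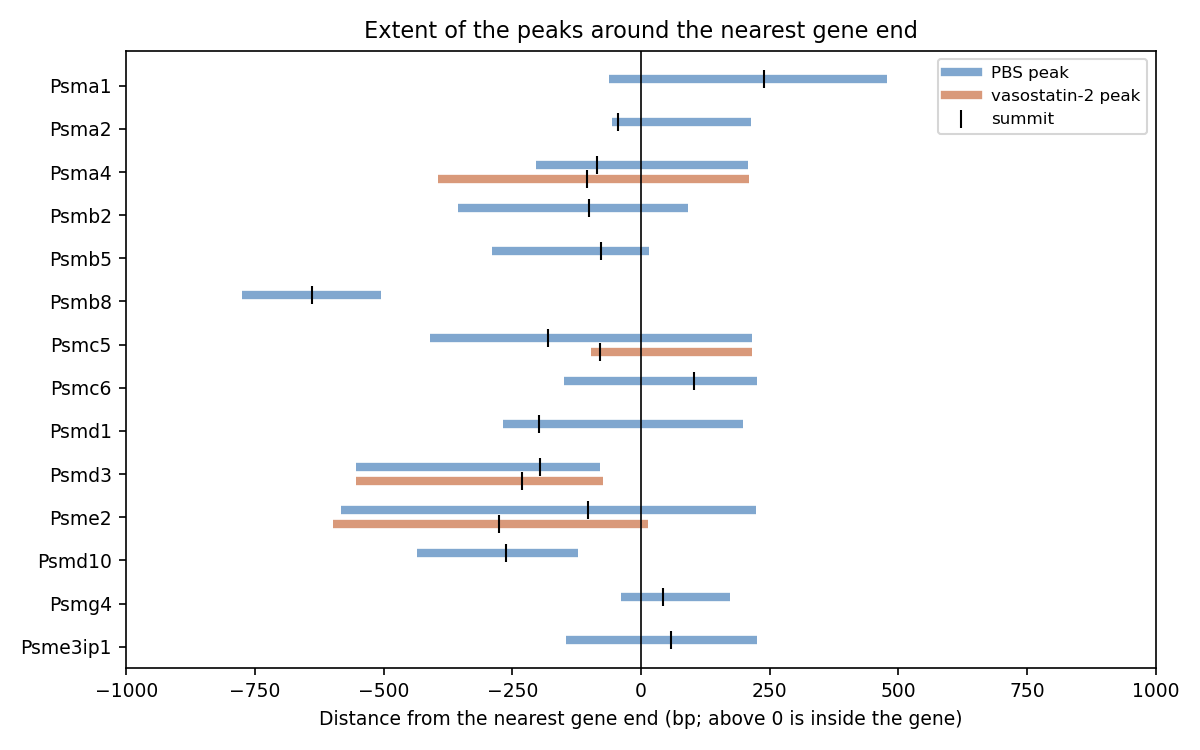
Extent of each peak (bars) and its summit (ticks) around the nearest gene end, in bp, with positive values inside the gene; blue is the PBS list and orange the vasostatin-2 list. Most peaks cover or adjoin the gene end, and the Psmb8 peak lies apart, with its summit 640 bp outside.

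At the 4 shared peaks the summit held fewer fragments in the vasostatin-2 library, which the background values put at 1.32 times the PBS depth. Psmd3 and Psme2 each had 29 and 17 fragments, a depth-scaled log2 ratio (vasostatin-2 over PBS) of -1.17 (exact binomial 95% interval -2.13 to -0.26). Psma4 had 11 and 7, a log2 ratio of -1.05 (-2.66 to 0.45), and Psmc5 9 and 7, a log2 ratio of -0.76 (-2.42 to 0.83). The intervals of Psma4 and Psmc5 include equal signal, so a difference was not detectable there at this depth. Summed over the 4 peaks there were 78 and 48 fragments, a depth-scaled ratio of 0.467 (exact interval 0.319 to 0.677). Lower signal in this library was general at gene ends: of 994 shared pairs with 15 to 50 fragments together 96.4% had a log2 ratio below 0, with a median of -0.85, against -1.11 for the 4 member pairs. The overlaps were 315 to 597 bp and the summits 19 to 173 bp apart.

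Of the 10 members found in the PBS list alone 8 rested on 5 to 8 fragments, and Psmb8 and Psmd1 on 12 and 13. Of the genes with a PBS peak 4 of 14 (28.6%, 95% Wilson interval 11.7 to 54.6) also had a vasostatin-2 peak, against 48.7% of all protein-coding genes with one; of the genes with a vasostatin-2 peak 4 of 4 also had a PBS peak, against 69.2%. PBS peaks at protein-coding gene ends with 4 to 5 fragments had a vasostatin-2 counterpart at 11.6%, and those with 6 to 8 fragments at 21.3%. In these classes lay 8 of the 14 member peaks, and 0 of the 8 had a counterpart. With 9 to 12 fragments 2 of 3 member peaks were shared, against 45.4% of all, and with 21 to 49 fragments 2 of 2, against 96.0%. Psmd1 was the 1 member peak with 13 to 20 fragments and had no counterpart, where 66.2% (62.2 to 69.9) of 588 such peaks did.

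**Figure D4:**
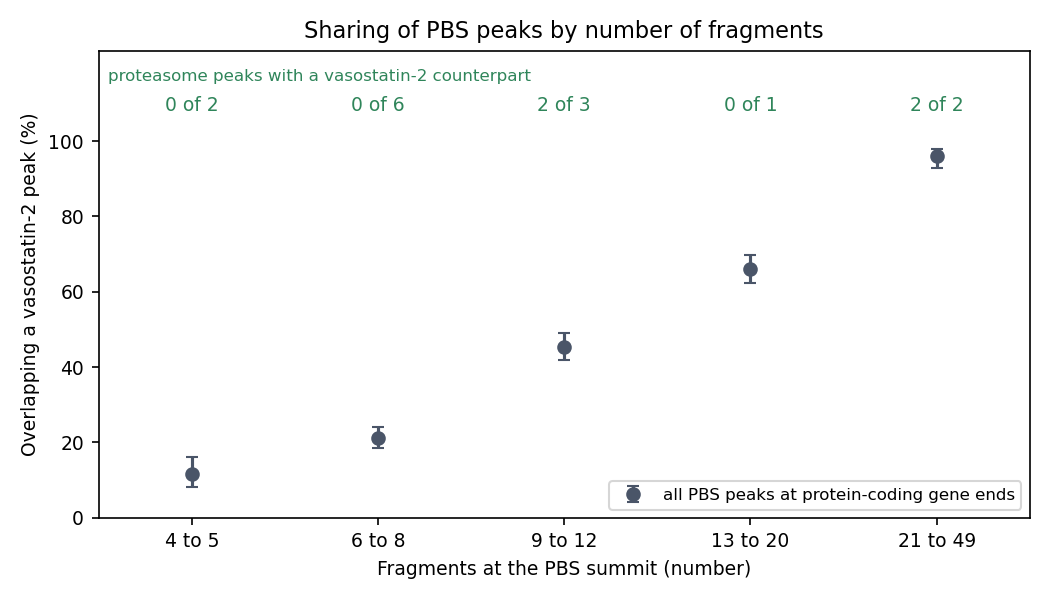
Share (%) of PBS peaks at protein-coding gene ends that overlap a vasostatin-2 peak, by number of fragments at the PBS summit; points are shares and whiskers 95% Wilson intervals. Green counts give the proteasome peaks of each class, 0 of 2, 0 of 6, 2 of 3, 0 of 1 and 2 of 2.

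Whether the 10 sites with a PBS peak alone could have passed in the vasostatin-2 list depends on the signal assumed there. With each PBS background scaled by the ratio of the background floors, 1.23, they needed 4 to 10 fragments to reach the smallest -log10 p of that list, 4.07. Equal signal per unit of depth corresponds to 6.59 to 17.1 fragments, at or above the need at all 10. At the median log2 ratio of shared gene-end pairs, -0.85, they would hold 3.66 to 9.52, which meets the need at 4 sites (Psma1, Psmb2, Psmd1 and Psmd10) and falls below it at the other 6. At Psmd1 the need was 7 fragments, against 17.1 and 9.52, and at Psmb8 10, against 15.8 and 8.78. The 10 sites were chosen by passing in the PBS list, and these figures leave out the width that a call also needs and the local background of the vasostatin-2 library, which are unknown without a peak.

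Sequence motifs were counted on both strands in the 47 member windows of 300 bases. The ROR element core TAGGTCA was found in 2 (Psmc2 and Psmd6, neither with a peak), or 4.26%, against 2.61% of all 32851 windows, and in 0 of the 14 windows that belong to 12 members with a PBS peak. The direct repeat of AGGTCA with 2 bases between, to which REV-ERB dimers can bind, was found in 0 member windows and 3 of all windows. The antioxidant response element core (TGACNNNGC or TGAGNNNGC), the letters through which NRF1 acts, was in 18 of 47 (38.3%), against 27.8% of all windows and 32.3% of CpG-rich windows of protein-coding genes. It stood in 5 of 14 windows of members with a PBS peak and 13 of 33 without.

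GC boxes and ETS sites were divided otherwise. GGGCGG was in 11 of 14 windows of members with a PBS peak and 14 of 33 without, or 53.2% of all 47, against 35.7% of all windows and 77.0% of CpG-rich ones. CCGGAAG, an ETS site, was in 2 of 14 with a peak and 15 of 33 without, or 36.2% of all 47, against 8.86% and 20.1%. The NF-Y box CCAAT was in 4 of 14 and 12 of 33, or 34.04%, against 37.4% and 36.01%. Median GC content was 56.3% in windows of members with a PBS peak and 59.0% in the others. These letters are descriptions of the windows, and no test was made.

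Of the genes that work with the proteasome, more had a peak in both lists than in either list alone. Of a list of 30 regulators, shuttle factors, ubiquitin genes and partners 29 were matched in the table (Paaf1 was not). A peak at an end was found for 13 of 29 with PBS (44.8%, 28.4 to 62.5) and 10 of 29 with vasostatin-2 (34.5%, 19.9 to 52.7), against the 14.8% and 10.4% of all genes; the list was drawn up with earlier results of these data known. Both lists held 8 of them (27.6%), 5 had a PBS peak only (17.2%) and 2 a vasostatin-2 peak only (6.90%). Over all protein-coding genes these shares were 7.19%, 7.58% and 3.20%. Of the 13 with a PBS peak, 8 (61.5%, 35.5 to 82.3) also had a vasostatin-2 peak. Among all protein-coding genes with a PBS peak 48.7% did, which lies inside that interval. Nfe2l1, the NRF1 gene, had 14 fragments at 6.41-fold with PBS and 8 at 4.10-fold with vasostatin-2, in peaks that did not overlap. Its relative Nfe2l2 had 9.24-fold and 5.13-fold enrichment. Rad23b, a shuttle that brings ubiquitinated proteins to the proteasome, had 16 fragments (9.53-fold) and 10 (7.19-fold).

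At the other 5 pathway genes with a peak in both lists, as at Rad23b, no difference was detectable at this depth. The peaks of Nfe2l1 did not overlap, so its depth-scaled log2 ratio of -1.21 (exact interval -2.67 to 0.15) compares different sites. The ratio was -1.08 (-2.38 to 0.15) at Rad23b. At Nfe2l2 it was -1.55 (-2.87 to -0.35), which excludes 0 but includes the median of -0.85 for shared gene-end pairs. Usp14, a deubiquitinase of the regulatory particle, had 6 fragments with PBS and 11 with vasostatin-2, a depth-scaled log2 ratio (vasostatin-2 over PBS) of 0.48 (exact interval -1.09 to 2.19). The ubiquitin-ribosomal fusion gene Rps27a had 5 and 8, a ratio of 0.28 (-1.51 to 2.24). Vcp, the unfoldase upstream of the proteasome, had 8 and 9 fragments and Ube3a, a ubiquitin ligase, 7 and 8; after scaling for depth their log2 ratios were below 0, -0.23 (-1.78 to 1.35) and -0.21 (-1.86 to 1.49). The polyubiquitin gene Ubb had 2 PBS peaks and 1 vasostatin-2 peak. Its strongest PBS summit held 13 fragments and the vasostatin-2 summit 11, a ratio of -0.64 (-1.94 to 0.63). These summits lay 1049 and 331 bp from an end, so they do not coincide. Of the genes with a PBS peak only, the highest folds were those of Ubqln4 (7.85-fold, 17 fragments), Ube3c (5.31-fold) and Txnl1 (5.30-fold). Pomp, the maturation factor of the core, and Zfand5 had PBS peaks of 6 and 8 fragments, and Ubqln1 a vasostatin-2 peak of 5.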

How the data were processed

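NR1D1 CUT&Tag libraries of PBS-treated and vasostatin-2-treated cells were used as peak lists of 7377 and 8816 peaks, 1 library each. Trimmomatic 0.39, BWA 0.7.17, MACS2 2.2.7.1 and build mm10 are named in the submitters' processing notes, without roles or settings; whether a control library entered the peak calls is not stated there. The files have no header and follow the caller's usual column order. The deposited fold enrichment is the summit over local background. Significance at the summit was deposited as -log10 p-value and as -log10 q-value. A deposited score repeats the latter in whole numbers and was left aside. Deposited summit offsets are in bases. Coordinates are the authors', counted from 1.

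Summit fragments and background were solved from fold and -log10 p by the Poisson formula, within 0.0005 of the deposited value for all but 2 peaks of each list. The depth ratio of 1.32 comes from the background floors of 0.310 and 0.381 fragments and fragment lengths of 196 and 183 bp, with an assumed window of 10000 bp and a background taken from the same library. The median summit held 8 and 7 fragments. Fragment recovery and overlap (checked against bedtools 2.31.1) were tested on simulated data. Peaks overlapping by at least 1 bp were shared. Shares have 95% Wilson intervals and fragment ratios 95% exact binomial (Clopper-Pearson) intervals (scipy 1.17.1), for counting error only; reads from PCR are not independent molecules.

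Genes and promoters came from RefSeq (GRCm38.p6). Every member with a peak is named. Of the pathway list all genes in both lists and the 4 of highest fold in 1 list were to be named; Pomp, Zfand5 and Ubqln1, and the members with peaks away from gene ends, were named after their values were seen. Members and lists were chosen with earlier results of these data known. The CpG-rich background, the pairs of 15 to 50 fragments and the fragments needed for a call, under either assumed signal, were chosen after seeing the data. Alternatives covered the window, the stringency of peaks, list length, depth and the overlap rule. The values of 1 gene of the pathway list are not reported here, though the counts over that list include it.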

Additional observations from a re-analysis of the deposited data

How the results depend on the processing

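Of 69 values recomputed under 14 alternative settings 49 stayed within 1.5 times the reported value, and 20 moved, all of them under the 4 stricter peak rules. Counts were judged by this factor alone, so some that moved still gave a share inside the reported interval. With -log10 q of at least 5, 4 members had a PBS peak, 2 a vasostatin-2 peak, 2 both and 2 a PBS peak alone, against 7.35%, 3.47%, 2.80% and 4.55% of all genes. Under this rule no excess of the members with PBS was seen, though the PBS peaks of Psmc5 (4.97) and Psmb2 (4.90) fell just below the cut. In the PBS and vasostatin-2 lists 4 and 2 pathway genes had such a peak. Among peaks at or above their list's median fold 9 members had a PBS peak (17.6%, 9.57 to 30.3, against 9.46%), 5 of them alone, and 5 pathway genes did. With at least 8 fragments the members counted 8 in PBS, 2 in vasostatin-2, 2 in both and 6 in PBS alone (11.8%). Over all genes these shares were 10.6%, 6.36%, 5.08% and 5.50%, and 8 pathway genes had a PBS peak. After thinning to the PBS depth the member counts were 8, 2, 2 and 6 in the same order, against 10.6%, 3.92%, 3.38% and 7.21% of all genes. The member shares for PBS, 15.7% (8.17 to 28.0), and for PBS alone, 11.8% (5.51 to 23.4), have intervals that include those of all genes. In this setting 8 and 5 pathway genes had a peak with PBS and vasostatin-2. Counts drop with a stricter rule by its construction. In every setting more members had a PBS peak than a vasostatin-2 peak, as did all protein-coding genes, and none had a vasostatin-2 peak alone, where all genes stood at 0.548% to 4.83%; the pathway genes did not keep that order, with 7 against 5 above the median fold and 9 against 8 with at least 8 fragments in favour of vasostatin-2. The summed ratio at shared peaks was 0.615 without scaling for depth. No paired analysis was possible because each treatment has 1 NR1D1 library. Summits of 5 to 8 fragments limit what a missing peak can show.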
